A study of Mus musculus with 6 samples.

Results

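Immediate early genes are the genes that cells switch on first after a stimulus, without needing new protein. In neurons synaptic activity and calcium entry lead kinases to phosphorylate CREB and the partners of serum response factor (SRF), which sit at these genes beforehand, and phosphorylated CREB recruits the acetyltransferases CREBBP and EP300. The first products are mostly transcription factors that act on a later wave of genes, together with proteins that switch the signal off again and a few that act at the synapse directly. A set of 40 such genes was followed here: 8 AP-1 and related leucine zipper factors, 4 EGR zinc finger factors, 3 NR4A orphan nuclear receptors, 9 other nuclear factors, 9 regulators of signalling and 7 effectors. The genes were chosen by name, with earlier results of these data known. A gene was represented by the probe set annotated to its symbol alone, the one with the highest mean where there were several. All 40 were found among the 22180 genes tested (Cyr61 under its current symbol Ccn1), 37 through 1 probe set and 3 through the brightest of several.

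The study compared mouse cerebellum collected at postnatal day 7 from 3 knockout samples, labelled Math1Cre::CrebbpFl/Fl, with 3 wild-type samples, labelled Math1Cre with wild-type Crebbp, so that both groups carried the Cre transgene. Math1 (Atoh1) drives Cre in the granule neuron precursors, while the tissue on the array was whole cerebellum and held many cells outside that lineage. Each sample was measured on 1 expression array. Values are log2 expression as deposited, and changes are knockout minus wild type on that scale with the standard error (SE) of a limma fit over all genes. "Fell" and "rose" are used for genes with an adjusted p under 0.05.

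Crebbp read 11.46, 11.42 and 11.32 on the knockout arrays, against 11.96, 11.99 and 11.90 on the wild-type arrays, a change of -0.56 (SE 0.05, adjusted p = 0.000354), and every array lay on the side of its label. No source used here says whether this probe set reads the floxed exons. Array medians ran from 7.25 to 7.29. The mean of 5 genes of cerebellar identity (Zic1, Zic2, En2, Pax6 and Barhl1) was 10.97 to 11.01 on knockout arrays, against 11.14 to 11.23 on wild-type arrays. Of these 5 genes 3 fell (Zic1, Zic2 and Pax6) and 0 rose. Over all genes 3.94% fell, and over those with a mean of at least 8, 7.49% fell. En2 changed by -0.27 (adjusted p = 0.145) and Barhl1 by 0.15 (0.253), and neither passed. The mean of the forebrain genes Tbr1 and Emx1 was 6.02 to 6.30 on knockout arrays, against 6.24 to 6.54 on wild-type arrays. Choroid plexus RNA set 3 arrays apart: Ttr, its most abundant transcript, read 13.77, 9.19 and 13.92 on knockout arrays, against 12.30, 8.08 and 8.91 on wild-type arrays. Results are therefore also given without the 3 arrays on which Ttr lay above 10, a fit that keeps knockout replicate 2 and wild-type replicates 2 and 3, in which the lone knockout array is assumed to vary like the others.

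Of the 40 immediate early genes, 6 fell in the knockout, 0 rose and 34 did not pass. The 6 were Egr1, Dusp4, Jund, Klf10, Pim1 and Dusp1, with falls of 0.25 to 0.49, or 1.19-fold to 1.41-fold. The best-known activity reporters, Fos, Arc and Npas4, were not among them. The 6 make up 15.0% of the set, where 3.94% of all genes tested fell, and 2.72% of all genes rose. More of the brighter genes passed in general: among genes with a mean of at least 8, where 5 of 22 set members fell (22.7%), 7.49% of all genes fell, and among the 18 members under 8 only Egr1 fell. The median change of the 40 was -0.06, against -0.003 over all genes, and 25 of the 40 changes were negative. The split of all calls depended on scaling: 604 genes rose and 875 fell with the values as deposited, and 440 rose and 1084 fell after centring each array on its median. Under both scalings, 0 of the 40 rose.

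**Figure D1:**
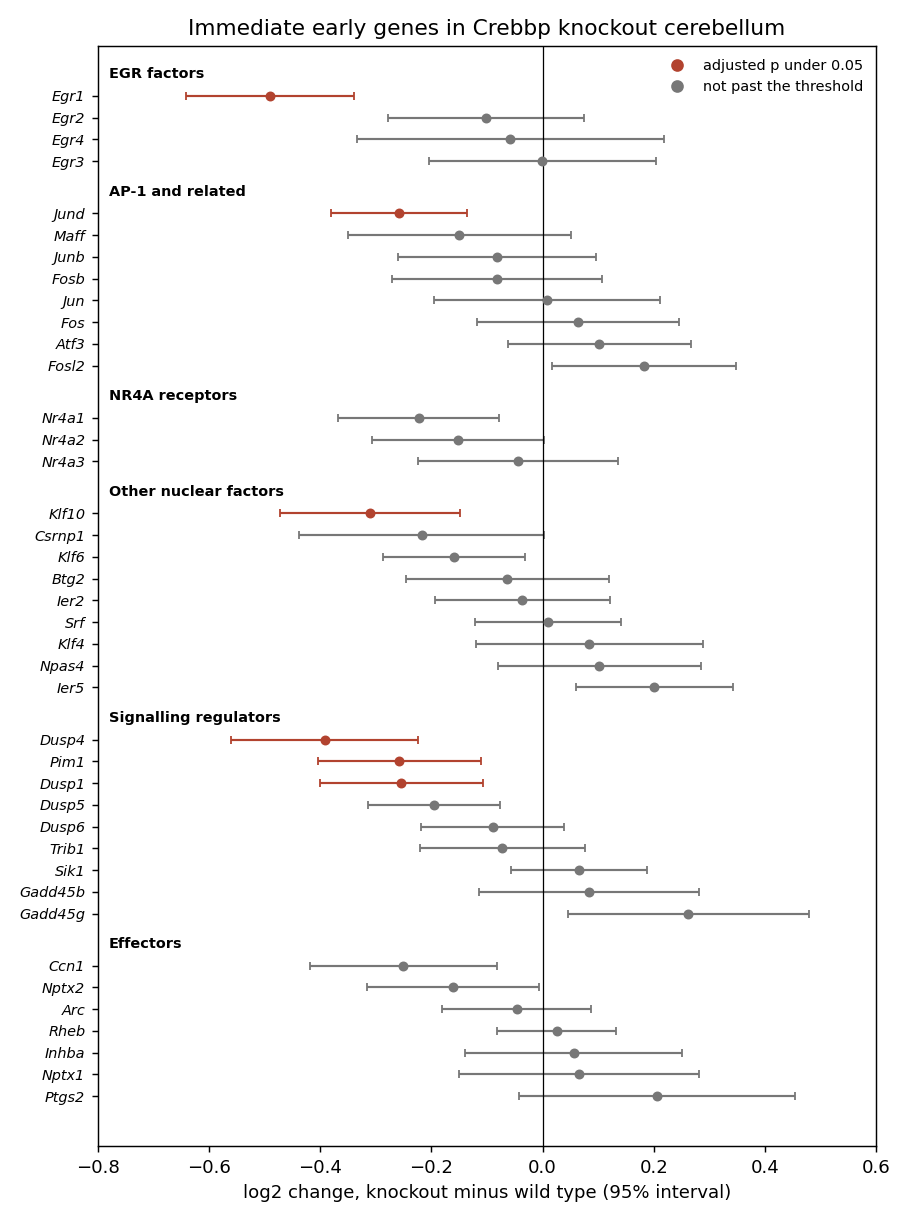
Log2 change (knockout minus wild type, x axis) of the 40 immediate early genes, grouped by role, with 95% intervals; red marks an adjusted p under 0.05. The 6 red genes lie between -0.49 and -0.25, and the intervals of most of the other genes include 0.

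The number of falls depended on single arrays. It was 1 when knockout replicate 1 was left out and also when wild-type replicate 1 was, 2 in the absence of wild-type replicate 2, 3 in the absence of wild-type replicate 3, and 4 when either of the other 2 arrays was left out. Fewer of all genes fell too, against 875 with every array. The number was 528, 800 and 617 without knockout replicates 1, 2 and 3. Without wild-type replicates 1, 2 and 3 it was 366, 462 and 721. Gadd45g rose when wild-type replicate 3 was left out. Without the 3 arrays with high Ttr, 0 of the 40 passed, in a fit where 124 of all genes fell and 112 rose. In that fit Egr1 changed by -0.52 (adjusted p = 0.0926), Dusp1 by -0.34, Klf10 by -0.22, Dusp4 by -0.21, and Jund and Pim1 by -0.15 each.

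Most of the granule neuron genes were lower on the same arrays. Of 8 markers (Gabra6, Slc17a7, Rbfox3, Neurod1, Camk4, Grin2c, Fat2 and Cntn2) 6 fell and 0 rose. Of all genes 3.94% fell, and of those with a mean of at least 8, 7.49% fell. Gabra6 was lower on every knockout array and did not pass (change -0.997, adjusted p = 0.0627). Grin2c changed by 0.13 (adjusted p = 0.521), with overlapping groups. The mean of these 8 markers was 9.23 to 9.44 on knockout arrays, against 9.92 to 10.13 on wild-type arrays. In whole tissue, fewer cells of a type and less RNA per cell cannot be told apart. The choroid plexus mean over 8 genes was 6.90 to 9.48 on knockout arrays and 6.78 to 7.57 on wild-type arrays, with 0 of 8 past the threshold. Of 5 astrocyte genes 2 rose, where 2.72% of all genes rose: Gfap by 0.45 (adjusted p = 0.0046) and Gja1 by 0.29 (0.0419). The other 3 overlapped between groups and did not pass: Aqp4 changed by 0.18, Slc1a3 by 0.07 and Aldh1l1 by -0.05. The mean of the 5 was 11.41 to 11.53 on knockout arrays, against 11.26 to 11.33 on wild-type arrays. Of 6 granule precursor genes 2 rose, where 2.72% of all genes rose. They were Atoh1, by 0.52 (adjusted p = 0.0019), and the cyclin gene Ccnd1, by 0.24 (0.0373). The other 4 did not pass: Mycn changed by 0.09, Gli1 by -0.05, Top2a by -0.06 and Mki67 by -0.14. Mki67 was lower on every knockout array. The median change of the list was 0.02, and its mean was 10.12 to 10.25 on knockout arrays and 10.04 to 10.12 on wild-type arrays. The meningeal mean was 9.25 to 9.70 on knockout arrays, against 9.13 to 9.20 on wild-type arrays, with 0 of 6 past the threshold. The microglial mean was 8.37 to 8.58 on knockout arrays and 8.43 to 8.45 on wild-type arrays, and 1 of 8, C1qb, rose. The Purkinje cell mean was 10.97 to 11.25 on knockout arrays and 10.81 to 11.02 on wild-type arrays, with 0 of 3 past the threshold. The part of these cell types in the changes of the immediate early genes was not tested.

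The EGR factors are zinc finger proteins that bind GC-rich sites, and Egr1 is the member that neurons induce most widely. Egr1 read 7.30, 7.30 and 7.37 on the knockout arrays, against 7.80, 7.85 and 7.78 on the wild-type arrays. The groups stood well apart, with a gap of several times the spread within either group, and the change of -0.49 (SE 0.07, adjusted p = 0.00310) was the largest of the 40. It was a 1.41-fold fall with a 95% interval of 1.27 to 1.56, and it passed whichever array was left out (adjusted p = 0.00574 to 0.0188). Adjusted for the level of choroid plexus genes, the change was -0.51 (adjusted p = 0.0238).

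No such fall was called for the other EGR genes. Over the 6 arrays Egr2, Egr3 and Egr4 averaged 7.09, 7.12 and 6.77, below the median of all values on the arrays (7.27). Also under it, and described below, were Ptgs2 (5.90), Npas4 (6.61), Fosb (6.69), Nr4a3 (7.03), Inhba (7.04), Maff (7.06), Csrnp1 (7.13) and Klf4 (7.16). No detection call came with the data. Egr2, which also controls myelination in Schwann cells, read 7.00, 7.06 and 7.06 in knockout and 7.17, 7.05 and 7.21 in wild type, with a change of -0.10 (SE 0.08, adjusted p = 0.549). Egr3 averaged 7.12 ± 0.11 in knockout and 7.12 ± 0.12 in wild type (SD, n = 3 each), and the 95% interval of its change ran from -0.20 to 0.20. Egr4 was the most variable, with 6.78, 6.49 and 6.95 in knockout and 6.90, 6.84 and 6.65 in wild type, and groups that overlapped throughout. The interval of Egr1, -0.64 to -0.34, lay below those of Egr2 (-0.28 to 0.08), Egr3 and Egr4 (-0.33 to 0.22); the differences between the genes were not tested.

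**Figure D2:**
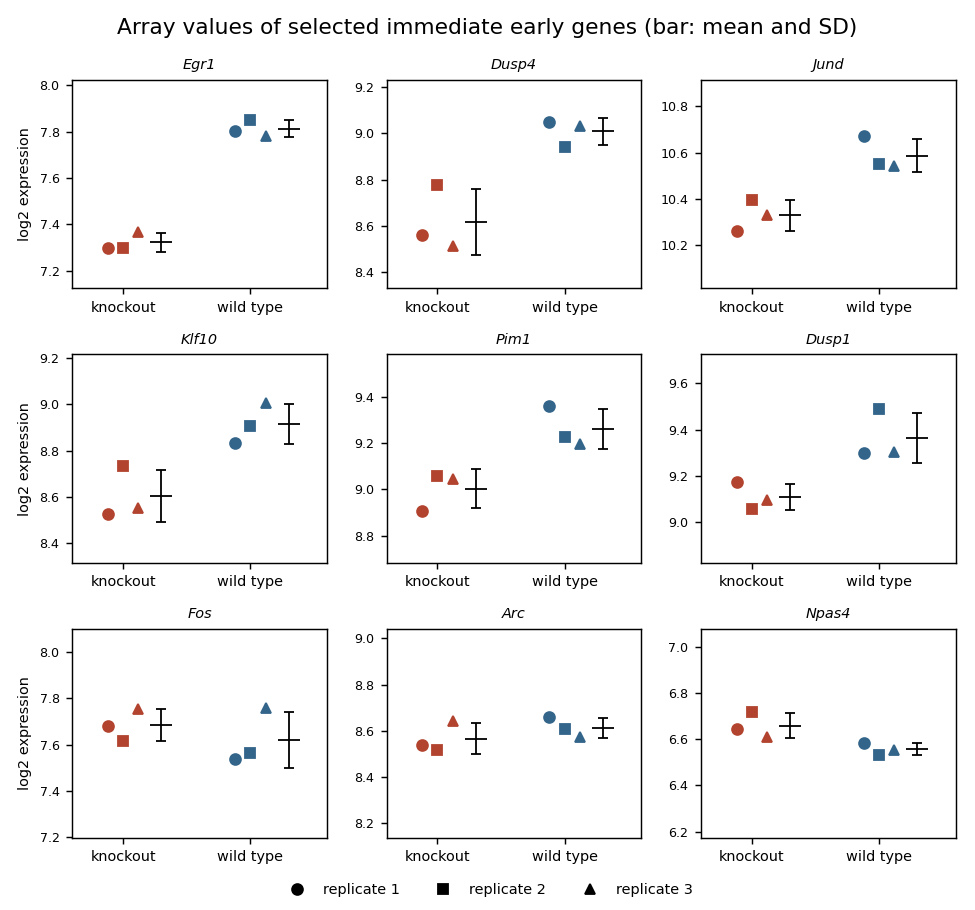
Log2 expression (y axis, each panel spanning the same 0.9 log2 units) of the 6 genes that fell and of Fos, Arc and Npas4 on each array, with knockout left of wild type and the mean and SD beside the points. The groups are apart in the upper 6 panels and overlap for Fos and Arc, while Npas4 reads slightly higher on all 3 knockout arrays.

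AP-1 is a dimer of a FOS and a JUN protein. Jund, a JUN protein that differs from its relatives in being present in resting cells, was the 1 of 8 genes here that fell. It read 10.26, 10.39 and 10.33 in knockout, against 10.67, 10.55 and 10.54 in wild type, so the groups were apart, with a change of -0.26 (SE 0.05, adjusted p = 0.0222). The call was lost without knockout replicate 1 (adjusted p = 0.0809), wild-type replicate 1 (0.109) or wild-type replicate 2 (0.0514). A second, dimmer probe set of Jund changed by 0.02 (SE 0.09, adjusted p = 0.943), and the mean of both changed by -0.12 (adjusted p = 0.328).

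Fos, Fosb, Jun and Junb did not pass, and their groups overlapped. Fos read 7.68, 7.62 and 7.75 in knockout and 7.54, 7.57 and 7.76 in wild type. Its knockout-to-wild-type ratio had a 95% interval of 0.921 to 1.18, so a 1.41-fold fall like that of Egr1 lay outside it. For Fosb, whose products are long-lived, the values were 6.61, 6.71 and 6.63 in knockout and 6.64, 6.79 and 6.76 in wild type, with an interval of 0.828 to 1.08. Jun, the main partner of FOS, averaged 10.03 ± 0.20 in knockout and 10.02 ± 0.08 in wild type (SD, n = 3 each). Junb, a JUN relative with weaker activity, averaged 7.68 ± 0.03 in knockout and 7.76 ± 0.13 in wild type, with a change of -0.08 (adjusted p = 0.647). The intervals of the ratio for Fosb and Junb (0.835 to 1.07) both reach falls of the size of that of Jund, whose ratio was 0.836.

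Fosl2, a FOS relative, was higher on all 3 knockout arrays, with 8.41, 8.42 and 8.59, against 8.18, 8.32 and 8.36 in wild type. The difference of 0.18 (SE 0.07) did not pass (adjusted p = 0.198). The stress-responsive factor Atf3 changed by 0.10 (adjusted p = 0.511) and the small MAF protein gene Maff by -0.15 (adjusted p = 0.410), both with overlapping groups. Atf3 is also a marker of injured neurons, and its values ran from 7.63 to 7.82 in knockout and from 7.57 to 7.64 in wild type.

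NR4A proteins are nuclear receptors that act without a known hormone. Nr4a1 read 7.95, 7.97 and 7.85 in knockout, against 8.11, 8.18 and 8.14 in wild type, with no overlap. Its change of -0.22 (SE 0.06) lay just outside the threshold (adjusted p = 0.0731), and with repeated quantile normalization it was -0.25 and passed (adjusted p = 0.0411). Nr4a2, which dopamine neurons need, read 8.42, 8.25 and 8.21 in knockout and 8.41, 8.43 and 8.49 in wild type, a change of -0.15 (adjusted p = 0.255) in which knockout replicate 1 sat among the wild-type values. Nr4a3 changed by -0.04 (SE 0.08, adjusted p = 0.828). All 3 changes were negative and 0 passed.

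**Figure D3:**
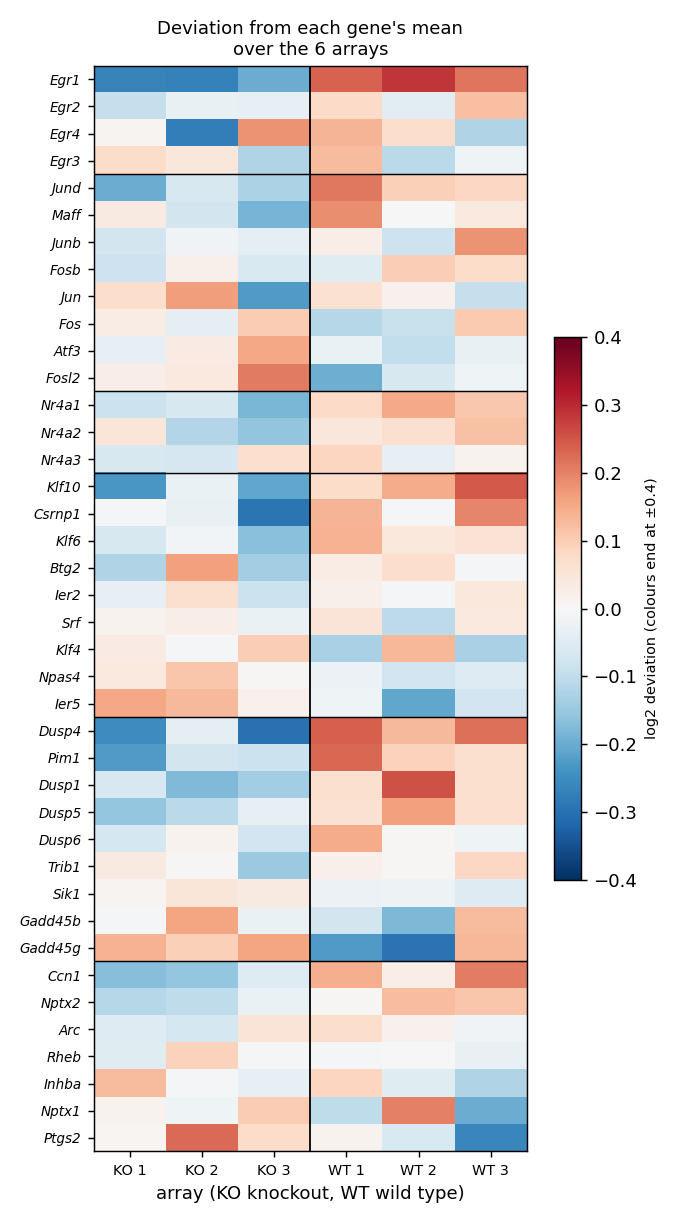
Deviation of each gene's log2 value from its own mean over the 6 arrays (colour), for the 40 genes in rows, grouped by role as in the plot of changes, and the arrays in columns, with knockout left of wild type. Egr1 is blue on every knockout array and red on every wild-type array, while Dusp4 and Klf10 are palest in knockout replicate 2.

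Among the other nuclear factors, Klf10, a zinc finger factor induced by TGF-beta and by activity, fell. It read 8.53, 8.73 and 8.55 in knockout, against 8.84, 8.91 and 9.00 in wild type, with a change of -0.31 (SE 0.07, adjusted p = 0.0346). The groups did not overlap, and knockout replicate 2 came closest to wild type. The call held without knockout replicate 2 and was lost without any of the other 5 arrays (adjusted p = 0.0677 to 0.110). Klf6, a relative, was also lower on all knockout arrays, at 9.54, 9.59 and 9.43 against 9.74, 9.64 and 9.66 in wild type, but did not pass (change -0.16, adjusted p = 0.141). Klf4, known from pluripotent cells and vessel walls, changed by 0.08 (adjusted p = 0.692). Endothelial markers, by comparison, averaged 9.04 to 9.11 on knockout arrays and 8.98 to 9.07 on wild-type arrays, with 0 of 8 past the threshold.

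Npas4, whose induction depends on calcium entry in neurons, read 6.65, 6.72 and 6.61 in knockout and 6.58, 6.53 and 6.55 in wild type. The groups did not overlap, but the difference of 0.10 (SE 0.08) was small beside its error (adjusted p = 0.564). Ier5, a regulator of heat shock factor activity, was higher on every knockout array, with 9.73, 9.70 and 9.59 against 9.55, 9.37 and 9.50 in wild type, and did not pass (change 0.20, SE 0.06, adjusted p = 0.0979). It was the closest of the 40 genes to a rise. Csrnp1, a nuclear protein of the AXUD family, read 7.12, 7.10 and 6.84 in knockout and 7.26, 7.12 and 7.32 in wild type, with groups that only just stood apart (change -0.22, adjusted p = 0.253).

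Srf itself, the factor through which actin and MAP kinase signals reach many of these genes, read 9.13, 9.14 and 9.09 in knockout and 9.17, 9.01 and 9.15 in wild type. Its ratio had a 95% interval of 0.919 to 1.10. The antiproliferative gene Btg2 averaged 8.75 ± 0.17 in knockout and 8.82 ± 0.04 in wild type (SD, n = 3 each), and the growth-induced gene Ier2 averaged 7.60 ± 0.08 in knockout and 7.64 ± 0.02 in wild type. Neither passed (adjusted p = 0.747 for Btg2 and 0.844 for Ier2).

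Of the 9 regulators of signalling, 3 fell, 0 rose and 6 did not pass; all 9 had a mean of at least 8, where 7.49% of all genes fell. DUSP proteins are phosphatases that inactivate MAP kinases, and signalling through those kinases induces their genes. Dusp4, a nuclear phosphatase, read 8.56, 8.78 and 8.51 in knockout, against 9.05, 8.94 and 9.03 in wild type, a change of -0.39 (SE 0.08, adjusted p = 0.0147) and a 1.31-fold fall. Knockout replicate 2 was again the closest to wild type. The call was lost without knockout replicate 1 (adjusted p = 0.0554) or wild-type replicate 1 (0.0742), with changes of -0.36 and -0.37, and after adjustment for the level of choroid plexus genes the change was -0.28 (adjusted p = 0.123).

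Dusp1, a second nuclear phosphatase, read 9.17, 9.06 and 9.10 in knockout, against 9.30, 9.49 and 9.30 in wild type. Its change of -0.25 (SE 0.07, adjusted p = 0.0483) passed narrowly, and leaving out any single array ended the call (adjusted p = 0.0656 to 0.140). Dusp5, specific for ERK, came just outside the threshold, at 9.76, 9.80 and 9.88 in knockout against 9.97, 10.08 and 9.98 in wild type (change -0.20, SE 0.05, adjusted p = 0.0586), and it passed without knockout replicate 3 (adjusted p = 0.0459) and after median centring (0.0343). The groups of both genes were apart. Dusp6, the cytoplasmic ERK phosphatase, read 9.81, 9.89 and 9.80 in knockout and 10.02, 9.88 and 9.86 in wild type, with overlap (change -0.09, adjusted p = 0.451), and its second, much dimmer probe set changed by 0.19 (adjusted p = 0.470).

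Pim1, a kinase that promotes survival, fell by 0.26 (SE 0.07, adjusted p = 0.0459). Its values were 8.91, 9.06 and 9.05 in knockout, against 9.36, 9.22 and 9.20 in wild type. This call too ended when any single array was left out (adjusted p = 0.0573 to 0.182), and a second, dimmer probe set changed by -0.04 (adjusted p = 0.914), with a mean of both of -0.15 (0.378).

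Sik1, a kinase that holds CREB coactivators out of the nucleus and a classical CREB target, read 8.48, 8.51 and 8.50 in knockout and 8.44, 8.44 and 8.41 in wild type. The groups did not overlap, but the difference was 0.07 (SE 0.05, adjusted p = 0.587). The 95% interval of its ratio ran from 0.961 to 1.14. Trib1, a pseudokinase, changed by -0.07 (adjusted p = 0.625).

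The 2 GADD45 genes encode small stress proteins linked to p38 signalling and DNA demethylation. Gadd45g read 9.36, 9.32 and 9.38 in knockout and 9.00, 8.93 and 9.35 in wild type, so the knockout arrays were even and 1 wild-type array lay among them. Its difference of 0.26 (SE 0.10) was the largest positive one of the 40 and did not pass (adjusted p = 0.157). Without wild-type replicate 3 it was 0.39 (adjusted p = 0.00931). Gadd45b averaged 8.22 ± 0.10 in knockout and 8.13 ± 0.16 in wild type (SD, n = 3 each).

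Of the 7 effectors 0 passed. Arc, which shapes AMPA receptor traffic at the synapse, read 8.54, 8.52 and 8.64 in knockout and 8.66, 8.61 and 8.58 in wild type, with an interval of 0.882 to 1.06 for its ratio. Ccn1 (Cyr61), a secreted matrix protein and target of SRF and YAP, read 7.48, 7.49 and 7.60 in knockout, against 7.79, 7.67 and 7.85 in wild type. The groups of Arc overlapped and those of Ccn1 did not, and the change of Ccn1 was -0.25 (SE 0.08, adjusted p = 0.0846). Nptx2, a pentraxin that gathers AMPA receptors, was likewise lower on every knockout array, at 7.60, 7.61 and 7.68 against 7.71, 7.83 and 7.82 in wild type (change -0.16, adjusted p = 0.227). Its relative Nptx1 averaged 8.35 ± 0.06 in knockout and 8.29 ± 0.21 in wild type (SD, n = 3 each), a change of 0.07.

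Rheb, the GTPase that activates mTORC1, gave 1 of the tightest values, with 11.02, 11.16 and 11.06 in knockout, 11.06, 11.07 and 11.04 in wild type and an interval of 0.945 to 1.10 for the ratio. Inhba, the activin subunit gene, changed by 0.06 (adjusted p = 0.799). Ptgs2, which encodes cyclooxygenase-2, had values of 5.64 to 6.13 on the 6 arrays, around the 25th percentile of all values on the arrays (6.02), and no detection call came with the data. Its change was 0.21 (SE 0.11, adjusted p = 0.350).

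Counting arrays rather than p-values, 12 of the 40 genes (30.0%) were lower on all 3 knockout arrays than on any wild-type array, where 13.1% of all genes were, and 4 (10%) were higher, where 11.8% of all genes were. The 6 lower genes that did not pass were Dusp5, Nr4a1, Ccn1, Klf6, Nptx2 and Csrnp1, and the 4 higher ones were Ier5, Fosl2, Npas4 and Sik1. At the threshold itself, Dusp1 (0.0483) and Pim1 (0.0459) lay just inside and Dusp5 (0.0586) and Nr4a1 (0.0731) just outside.

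Many immediate early promoters carry the cyclic AMP response element (CRE), the site of CREB. Promoter windows from 250 bases before to 50 after an annotated start were matched for 30 of the 40 genes, by symbol, in RefSeq sequence of build GRCm38.p6, and searched on both strands. The 8-base CRE, TGACGTCA, stood in windows of 3 of the 30 (10%; Dusp1, Btg2 and Maff), against 2.03% of 27025 genes with windows. Its core TGACG, counted wherever it stood, within a full CRE too, was in windows of 20 of the 30 (66.7%), against 23.0% of all genes. The windows of the set were rich in CpG, with a median of 22 CpG against 7 over all windows. Among genes with a window of at least 10 CpG, the shares with the core were 71.4% of 28 set members and 35.0% of all genes. For the full CRE they were 10.7% and 3.62%.

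The 250 bases before the start are shown for 4 genes that differ in their change, with every TGACG or its complement CGTCA in capitals; a full CRE appears as a run of 8 capitals. Dusp1 fell, Nr4a1 lay just outside the threshold, and Fos and Btg2 were nowhere near it.
Dusp1, chr17:26508473-26508722, minus strand: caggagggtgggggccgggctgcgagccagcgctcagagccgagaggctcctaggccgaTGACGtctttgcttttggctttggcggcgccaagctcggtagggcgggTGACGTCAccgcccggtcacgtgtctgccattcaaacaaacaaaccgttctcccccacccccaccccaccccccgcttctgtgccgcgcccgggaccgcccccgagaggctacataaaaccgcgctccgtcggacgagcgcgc
Nr4a1, chr15:101266596-101266845, plus strand: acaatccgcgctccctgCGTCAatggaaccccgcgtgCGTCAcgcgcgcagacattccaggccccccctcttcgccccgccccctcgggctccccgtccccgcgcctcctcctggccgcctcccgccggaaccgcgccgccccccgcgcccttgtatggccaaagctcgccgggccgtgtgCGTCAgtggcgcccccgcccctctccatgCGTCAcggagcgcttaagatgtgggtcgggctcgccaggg
Fos, chr12:85473640-85473889, plus strand: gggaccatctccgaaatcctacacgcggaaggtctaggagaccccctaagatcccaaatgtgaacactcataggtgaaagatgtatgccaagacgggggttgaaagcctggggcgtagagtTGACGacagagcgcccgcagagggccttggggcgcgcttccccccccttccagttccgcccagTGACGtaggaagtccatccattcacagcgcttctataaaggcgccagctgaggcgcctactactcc
Btg2, chr1:134079156-134079405, minus strand: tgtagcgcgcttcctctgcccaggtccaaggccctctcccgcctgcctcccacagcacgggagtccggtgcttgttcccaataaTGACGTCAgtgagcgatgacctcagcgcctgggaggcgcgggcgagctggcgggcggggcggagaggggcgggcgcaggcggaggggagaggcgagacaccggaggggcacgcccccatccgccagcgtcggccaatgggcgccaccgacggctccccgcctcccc

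Dusp1 and Btg2 both hold the full site, Nr4a1 holds 4 separate cores and Fos 2. Their changes were -0.25, -0.06, -0.22 and 0.06. Of the 20 genes with a core in a window, 1 fell (Dusp1) and 19 did not pass, and their median change was -0.07, against 0.03 for the 10 with none. Of the 6 genes that fell, Dusp1, Jund and Pim1 had windows, and neither Jund nor Pim1 had a core there. The CArG box, bound by SRF, was found in windows of 3 of the 30 (Dusp5, Egr2 and Srf itself), against 1.81% of all genes, and 0 of these fell. The EGR site GCGNGGGCG was found for 9 of the 30 (30.0%), against 6.27% of all genes and 13.3% of genes with a window of at least 10 CpG, and 0 of these 9 fell. The AP-1 site TGANTCA was found for Csrnp1 alone, against 8.97% of all genes. Among genes with a window of at least 10 CpG it was in 3.57% of set members and 4.22% of all genes. Of the 30 genes with windows only Dusp1, Jund and Pim1 fell, and of all genes 3.94% fell. With so few falls, the counts of falls by site say little about the sites. A match describes letters in these windows and shows neither binding nor its absence elsewhere.

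A further 15 immediate early genes outside the set were measured (of 16 listed), and 0 of them rose or fell. Their median change was 0.04, with a range from -0.22 to 0.32. Myc, the growth-promoting transcription factor, was the nearest to a call, with 9.50, 9.33 and 9.25 in knockout against 8.88, 9.07 and 9.17 in wild type. It was higher on every knockout array (change 0.32, SE 0.09, adjusted p = 0.0565), and it passed without knockout replicate 3 (adjusted p = 0.0437) or wild-type replicate 3 (0.0443), when genes with a mean under 6 were left out, and with array weights. Plk3, a stress-induced kinase, was lower on every knockout array (change -0.20, adjusted p = 0.0994).

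The late response list holds genes placed downstream of the first wave, and some of them encode secreted proteins. Their dependence on that wave was not tested. Of 15 measured (of 16 listed), 3 fell (20.0%, against 3.94% of all genes), 0 rose and 12 did not pass, with a median of -0.006. Among the 10 with a mean of at least 8, 2 fell, where 7.49% of all genes that bright fell. Scg2, the secretogranin of dense-core vesicles, read 9.89, 9.97 and 9.98 in knockout, against 10.42, 10.55 and 10.31 in wild type (change -0.48, SE 0.06, adjusted p = 0.00230). Nrn1, which promotes neurite growth, fell by 0.22 (SE 0.05, adjusted p = 0.0191), and Gem, a small GTPase that damps calcium channels, by 0.34 (SE 0.08, adjusted p = 0.0389). Scg2 passed whichever array was left out. Nrn1 lost its call without knockout replicate 2 (adjusted p = 0.0522), wild-type replicate 1 (0.101) or wild-type replicate 2 (0.0653). Gem kept its call only without knockout replicate 3, and its adjusted p was 0.0807 to 0.126 without any other single array. Without the 3 arrays with high Ttr 0 of the list passed, at changes of -0.46 for Scg2 (adjusted p = 0.0955), -0.37 for Gem (0.285) and -0.22 for Nrn1 (0.390). Bdnf, the neurotrophin most tied to activity, read 6.68, 6.68 and 6.72 in knockout and 6.66, 6.70 and 6.75 in wild type. These values lay below the median of all values on the arrays (7.27).

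The regulators upstream of these genes include CREB, its kinases and its coactivators. Of 26 measured (of 32 listed), 9 fell (34.6%), 0 rose and 17 did not pass, with a median of -0.06; 1 of the 9 is Crebbp itself. Of all genes 3.94% fell, and of those with a mean of at least 8, as 25 of these 26 had, 7.49% fell. Camk4, the calcium-dependent kinase that phosphorylates CREB in granule neurons, read 9.97, 9.95 and 10.02 in knockout, against 10.70, 10.87 and 10.73 in wild type (change -0.79, SE 0.06, adjusted p = 9.50e-05). Rps6ka3, the CREB kinase RSK2, read 10.44, 10.47 and 10.45 in knockout, against 10.90, 10.95 and 11.00 in wild type (change -0.50, SE 0.05, adjusted p = 0.000368). Both stood far apart between the groups and also passed without the 3 arrays with high Ttr (adjusted p = 0.00436 and 0.0290), as did Crebbp (0.0321).

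Other kinases of the same route fell by less. Rps6ka5, the CREB and histone kinase MSK1, fell by 0.32 (SE 0.06, adjusted p = 0.0107), and Camk2d and Camk2b, subunits of calmodulin kinase II, by 0.32 (SE 0.05) and 0.33 (SE 0.07). Ppp3ca, the catalytic subunit of the phosphatase calcineurin, fell by 0.25 (adjusted p = 0.0128), Crtc3, a CREB coactivator, by 0.21 (0.0454), and Mef2d, an activity-dependent factor, by 0.20 (0.0492). Several of these calls did not hold with 1 array left out, where fewer of all genes fell too (366 to 800). Crtc3 lost its call when any 1 array was left out (adjusted p = 0.0619 to 0.144), and Mef2d kept it only without knockout replicate 1 (up to 0.167 otherwise). Camk2b kept its call only without knockout replicate 2 or wild-type replicate 3 (0.0534 to 0.0931 otherwise), and Ppp3ca lost it without wild-type replicate 1 (0.0759). Camk2d and Rps6ka5 passed whichever array was left out. Without the 3 arrays with high Ttr these 6 genes did not pass, at changes of -0.35 to -0.19. Creb1, the factor itself, read 10.83, 10.86 and 10.85 in knockout and 10.83, 10.90 and 10.88 in wild type, and Ep300, the relative of Crebbp, changed by 0.08 (adjusted p = 0.413). Camk4 is also 1 of the 8 granule neuron markers above, and the part of those cells in these falls was not tested.

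**Figure D4:**
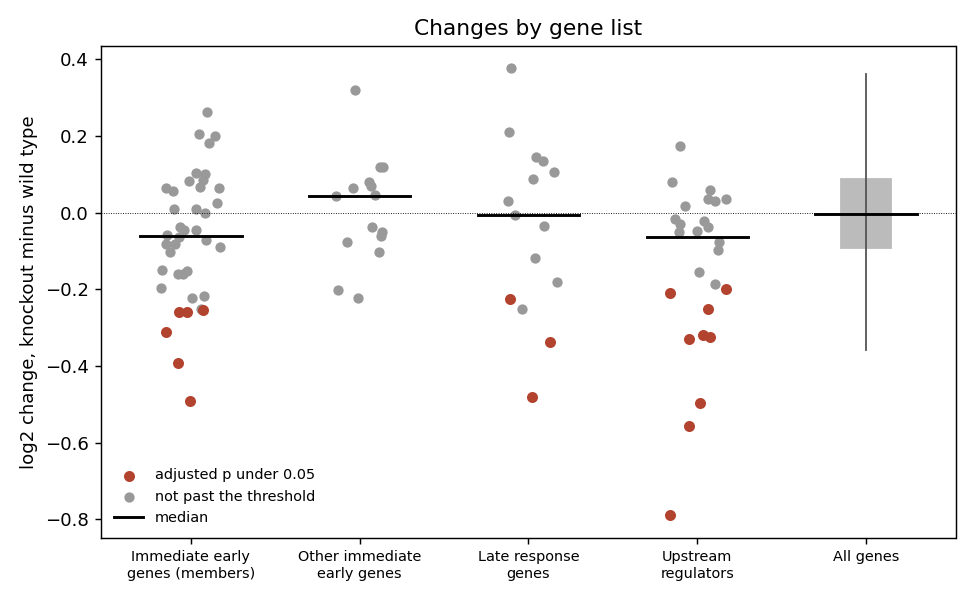
Log2 change (knockout minus wild type, y axis) of each measured gene in the set of 40 and in the other lists of the pathway, red where the adjusted p was under 0.05, with the median as a bar; for all genes the box spans the 25th to 75th and the line the central 95%. The red points all lie below 0, and the lowest of them are upstream regulators.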

How the data were processed

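Total RNA from each of 6 cerebellum samples was read on 1 Affymetrix array. The authors deposited log2 expression values per probe set; the submitters' processing notes name RMA and oligo. The sources used here give no version, build or filter. Of 41345 probe sets, 23521 carried 1 gene symbol in GEO's platform annotation; 1814 with several and 16010 with none were left out. Groups follow the sample titles.

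The deposited values were fitted in R 4.3.3 using limma 3.58.1 (lmFit and trended eBayes; two-sided), and p-values were adjusted over 22180 genes by Benjamini-Hochberg. The script was tested on simulated data. Tables and plots used Python 3.11.15, pandas 2.3.3 and matplotlib 3.10.9. The labels do not state separate animals, so the p-values cover the spread among these samples, possibly technical, and 3 arrays a group limit the precision.

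The 40 genes and the other lists were chosen with earlier results of these data known. Genes that passed, did not overlap between groups, lay nearest the threshold or had the highest means are given by array; of each other list, up to 4 with the smallest p were to be named. Further genes, the mean of 8, the promoter searches and windows shown, the choroid plexus covariate and the fit without 3 arrays were chosen after values were seen. Other alternatives were the prior variance, normalization, dim genes, threshold, probe set rule, array weights, a block for replicate number and each array left out.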

Additional observations from a re-analysis of the deposited data

How the results depend on the processing

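Across the 19 alternatives, the 6 genes that fell kept a negative change in all, and their calls held in 18 (Egr1), 13 (Dusp4), 11 (Jund), 10 (Klf10), 7 (Dusp1) and 7 (Pim1) of them. Causes were not tested. With the full set of arrays 6 of the 40 fell; with 1 array left out 1 to 4 fell and 0 to 1 rose. The number of falls was 1 without a trend in the prior variance, 1 with a choroid plexus covariate, 0 without the arrays with Ttr above 10 and 1 at an adjusted p under 0.01, and 1 gene rose at an adjusted p under 0.1. For all genes, 184 rose and 310 fell without the trend, 228 and 265 with the covariate, 112 and 124 without the arrays with high Ttr, and 148 and 343 at an adjusted p under 0.01; 1023 rose at an adjusted p under 0.1. With 1 array left out 199 to 478 rose and 366 to 800 fell. Among other immediate early genes 1 rose when genes with a mean under 6 were left out, 1 with array weights and 1 at an adjusted p under 0.1, where 1 also fell, and 0 to 1 rose with 1 array left out. Late response genes that fell numbered 1 without the trend, 1 with the covariate, 0 without the arrays with high Ttr, 1 at an adjusted p under 0.01 and 1 to 3 with 1 array left out. Upstream regulators that fell numbered 4, 4, 3 and 4 under the same 4 alternatives and 5 to 7 with 1 array left out.

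Changes close to 0 turned sign in places, and none of these passed under either fit: Fos was -0.045, Egr3 0.11, Nptx1 -0.017, Dusp6 0.020, Btg2 0.13, Ier2 0.047 and Klf4 -0.0048 without the arrays with high Ttr; Egr3 was 0.024, Btg2 0.087 and Ier2 0.031 with the covariate; Jun was -0.017 and Srf -0.015 after median centring; Egr3 was 0.0073 with array weights; and Dusp6 was 0.049 as the mean of its probe sets. With 1 array left out the range was -0.073 to 0.12 for Jun, -0.054 to 0.062 for Egr3, -0.16 to 0.066 for Egr4, -0.017 to 0.18 for Nptx1, -0.015 to 0.056 for Rheb and -0.040 to 0.039 for Srf. The labels state no pairing by replicate number. Correlations of same-numbered deviations were 0.01, 0.03 and -0.13, against -0.14 to 0.12 for differently numbered arrays. With 3 arrays a group these values cannot decide whether the arrays are paired. With the number as a block 4 of the 40 fell, without Dusp1 (adjusted p = 0.0572) and Pim1 (0.0644). In that fit 0 of the 40 rose, and 723 of all genes rose and 1078 fell.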

Other observations

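Of 6 heat shock genes measured, 1 rose, 1 fell and 4 did not pass, and the groups of all 6 were apart, 3 higher and 3 lower in knockout, where 11.8% of all genes were apart and higher and 13.1% apart and lower. Hspa1b, an inducible HSP70, read 7.35, 7.14 and 6.85 on knockout arrays, against 7.95, 7.86 and 7.98 on wild-type arrays (change -0.82, SE 0.11, adjusted p = 0.00334). Its near-identical neighbour Hspa1a changed by 0.22 (adjusted p = 0.152), so the assignment of signal between these copies is uncertain. Hspa8, the constitutive HSC70, rose by 0.22 (SE 0.04, adjusted p = 0.0132). Hspb1, a small heat shock protein, changed by 0.30 (adjusted p = 0.0503), and the co-chaperone genes Dnajb1 and Hsph1 by -0.19 (0.121) and -0.17 (0.0777).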
